A study of Rattus norvegicus with 22 samples.

Results

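The regions described here are stretches of prefrontal cortex chromatin that were called open in both libraries from rats given WIN, a synthetic cannabinoid receptor agonist. They were called in neither library from rats without it. They were chosen by the presence and absence of deposited ATAC-seq intervals: an active region was a member when it held at least 1 interval from the WIN library and 1 from the WIN+cocaine library, and none from the control and cocaine libraries. Of 99896 active regions, 2041 met this rule. The rule rests on called intervals, and an absent interval does not show closed chromatin. ATAC sequencing reads out open chromatin with a transposase, an enzyme that cuts accessible DNA and leaves sequencing adapters at the cuts. The labels give male Sprague-Dawley rats and 4 treatments, each with 1 ATAC library: control, WIN-treated, Cocaine-treated and WIN+cocaine-treated. The title places the cannabinoid exposure in adolescence and asks how it alters the first response to cocaine. The labels give no dose, age at sampling, interval between the drugs or number of animals behind a library, and they do not say whether the control and cocaine animals received a vehicle in place of WIN. The libraries were made from nuclei of flash frozen tissue, which holds all cell types of the prefrontal cortex, so a region open in more cells and a region more open in each cell cannot be told apart.

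Open chromatin marks promoters, where transcription starts, and enhancers and other regulatory elements that bind transcription factors at a distance from genes. Promoters tend to be open in many cell types and give strong signals, whereas distal elements differ more between cell types and states. The CB1 receptor, on which WIN acts, sits mainly on axon terminals, where it lowers transmitter release, and the prefrontal cortex still matures during adolescence. Cocaine blocks the reuptake of dopamine and other monoamines and so raises their level at synapses.

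Each treatment had 1 ATAC library and so no replicate. The contrast of the 2 WIN-exposed with the 2 other libraries chose the members, so it was not tested on them, and the values below describe these 4 libraries. The libraries held 69639 to 76884 intervals, and each interval carried a whole-number summit score on the authors' scale, from 14 upwards. The median score was 37 in control and WIN and 39 in cocaine and WIN+cocaine. Read depth per library is unknown, and binomial intervals below cover counting over regions only. Gene names and sequences of the regions were not analysed here: no source used here names the genome build of the tracks, and on 15 of 22 chromosomes the tracks run past the last gene of the gene table at hand (assembly GRCr8), whose positions were therefore not used.

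The members made up 2.04% of all active regions and 1.58% of the bases in them, or 662803 of 41937720 bases. That share was close to those of the 2 library pairs that differ in both drugs. Control and WIN+cocaine alone held 2038 regions, also 2.04% of the active regions. WIN and cocaine alone held 2236, or 2.24%. The remaining pairs were control with WIN, at 1855 regions (1.86%), control with cocaine, at 1850 (1.85%), and cocaine with WIN+cocaine, at 4054 (4.06%). The number of regions private to the WIN-exposed pair thus lay between those of the 2 pairs that differ in both drugs. The order depends on how many weak intervals each library contributes. With the 69639 highest-scoring intervals of every library, the WIN-exposed pair had 1866 private regions, below control with WIN+cocaine (2039) and WIN with cocaine (2112), and control with WIN rose to 2884, above the 2761 of cocaine with WIN+cocaine. These counts follow from the presence rule itself and carry no test.

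**Figure D1:**
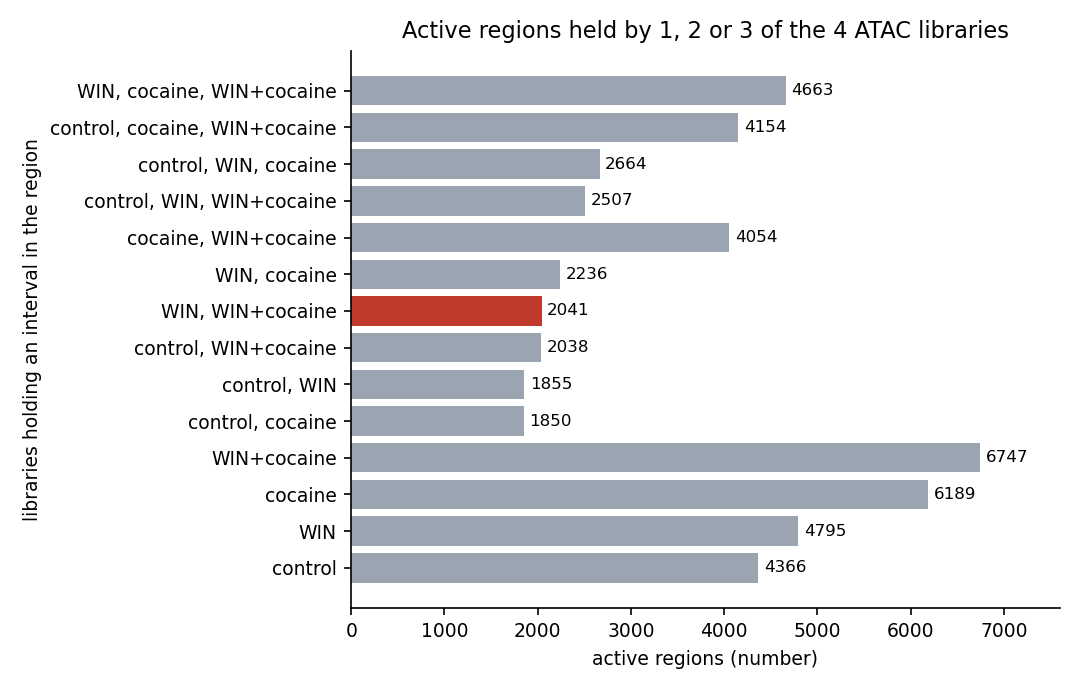
Number of active regions (horizontal axis) held by each combination of 1, 2 or 3 libraries (vertical axis), with the regions of WIN and WIN+cocaine only in red. The red bar, at 2041, sits beside the bars of control with WIN+cocaine (2038) and WIN with cocaine (2236), and the bar of cocaine with WIN+cocaine reaches 4054; the 49737 regions held by all 4 libraries are left out.

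Pairs differ in how many regions they hold in common, so the private regions were also counted as a share of these. WIN and WIN+cocaine both held an interval in 58948 regions, of which the 2041 members were 3.46% (95% Wilson interval 3.32% to 3.61%). The share was 3.49% for control with WIN+cocaine, 3.77% for WIN with cocaine, 3.27% for control with WIN and 3.17% for control with cocaine. For cocaine with WIN+cocaine it was 6.48% (95% Wilson interval 6.29% to 6.67%). Most regions open in both WIN-exposed libraries were open elsewhere too: 49737 were held by all 4 libraries, 4663 also by cocaine but not control, and 2507 also by control but not cocaine.

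The members were weak openings. Their summit scores in WIN had a lowest value of 14, a median of 24 and a highest value of 163, and in WIN+cocaine a lowest value of 14, a median of 26 and a highest value of 99. The median member stood at percentile 17.2 of all WIN intervals and at percentile 20.5 of all WIN+cocaine intervals. Both scores lay below the lower quartile of their library (27 in WIN, 28 in WIN+cocaine) in 947 members, or 46.4%, and both lay below the library median in 1748, or 85.6%. Both reached the library median in 101 members (4.95%), both reached the upper quartile in 4, and both reached 50 in 20. The presence of these intervals chose the members, so their scores are given as a description.

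Regions of the other pairs were weak to a similar degree. Median scores in their libraries ran from 24 to 27, and the share with both scores at 50 or more ran from 0.687% for control with WIN+cocaine to 2.74% for cocaine with WIN+cocaine, beside 0.98% for the members. Across the 2041 members the WIN and WIN+cocaine scores were related, with a Pearson r of 0.649 and a Spearman rho of 0.497. Among the other pairs the same r was 0.609 for control with cocaine, 0.643 for control with WIN+cocaine, 0.672 for WIN with cocaine, 0.702 for control with WIN and 0.772 for cocaine with WIN+cocaine, so the members' value lay inside their range. All points of 1 pair come from the same 2 libraries. The scores lay within 5 units of each other in 1285 members. The score was higher in WIN+cocaine in 1111 members, higher in WIN in 786 and equal in 144, beside library medians that differed in the same direction.

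**Figure D2:**
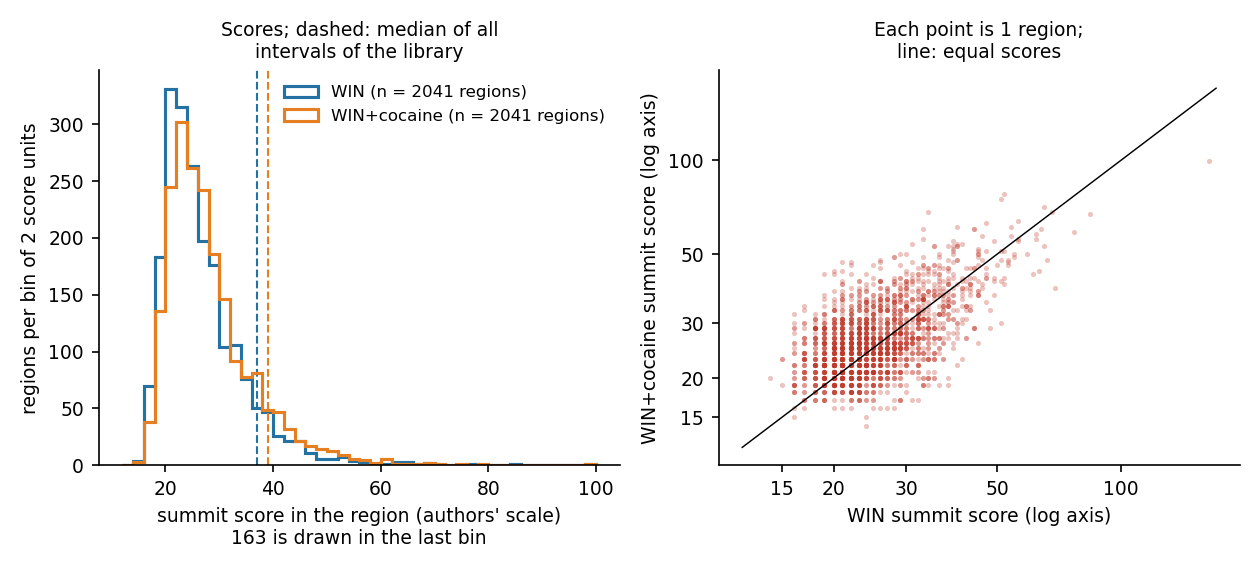
Left, number of members (vertical axis, per 2 score units) by summit score on the authors' scale (horizontal axis) in WIN and WIN+cocaine, with the median of all intervals of each library dashed at 37 and 39; right, the WIN score of each member (horizontal log axis) against its WIN+cocaine score (vertical log axis). Most members lie left of the dashed lines, and the single point at 163 in WIN and 99 in WIN+cocaine stands alone.

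The values just inside and just outside the rule were near each other. In the 2507 regions that held control beside the WIN-exposed libraries, the median scores were 27 in WIN, 28 in WIN+cocaine and 27 in control, and the control score lay below the lower quartile of its library in 47.3%. In the 4663 regions that held cocaine beside them, the medians were 27, 30 and 30 for WIN, WIN+cocaine and cocaine, and the cocaine score lay below its lower quartile in 39.9%. In the 49737 regions of all 4 libraries the medians were 46 in WIN and 51 in WIN+cocaine.

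Because weak regions are more often missing from a library, private regions were counted by score range, taking the lower of the pair's scores. The scaling of scores between libraries is not known, so a range may not hold like ranks in each library. With equal numbers of intervals, the lowest score kept was 14 in control, 18 in WIN and 22 in each cocaine-treated library. Among regions open in both WIN-exposed libraries, 16.6% were members at lower scores of 14 to 19, 11.2% at 20 to 24, 5.02% at 25 to 29, 2.04% at 30 to 39, 0.671% at 40 to 49 and 0.101% at 50 or more. The shares fell at each step for each of the 6 pairs. At 20 to 24 the share was 11.3% for control with WIN+cocaine, 11.1% for WIN with cocaine, 10.4% for control with cocaine and 9.17% for control with WIN, beside 19.1% for cocaine with WIN+cocaine. At 40 to 49 the WIN-exposed pair had 53 private regions of 7893 (0.671%, 95% Wilson interval 0.514% to 0.877%) and the cocaine-treated pair 195 of 8465 (2.3%, 2.01% to 2.65%). The members' interval overlapped that of control with cocaine at 0.614% (0.463% to 0.813%).

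**Figure D3:**
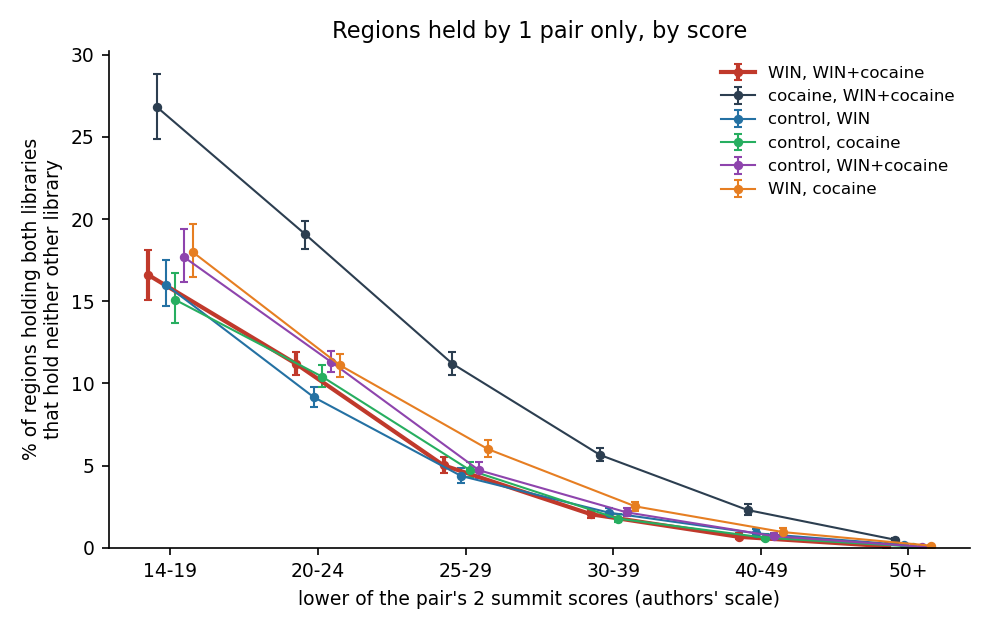
Share of the regions holding both libraries of a pair that hold neither other library (vertical axis, %), by the lower of the pair's summit scores (horizontal axis, authors' scale), for the 6 pairs; bars are 95% Wilson intervals. The red line of WIN with WIN+cocaine falls from 16.6% to 0.101% and in each score range lies among the 4 pairs that do not share cocaine. The line of cocaine with WIN+cocaine lies above it in each score range. The scaling of scores between libraries is not known, so a score range may not hold like ranks in each library.

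The openings in WIN and WIN+cocaine mostly overlapped by more than the rule requires. A region that joins 1 interval of each library holds intervals that meet, and the lowest overlap was 1 bp. Of the members, 2039 held exactly 1 interval of each library, and 2 held a second WIN interval. Median interval widths were 254 bp in WIN and 255 bp in WIN+cocaine, and the median overlap was 207 bp. In 1843 members (90.3%) the overlap covered 50% or more of the longer interval. The summits were at the same position in 385 members (18.9%) and within 100 bp in 1761 (86.3%), with a median distance of 32 bp. In the members named below all summit distances were multiples of 16 bp, so finer agreement cannot be read from them. Overlap of that degree was found in 88.9% of the regions of control with WIN, the lowest of the other pairs, and in 96.9% of those of cocaine with WIN+cocaine, the highest.

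Members were from 200 to 786 bp wide with a median of 309 bp, within the medians of 299 to 321 bp of the other pairs. The median was 378 bp over all active regions and 484 bp over the regions of all 4 libraries, whose width joins the intervals of more libraries. Regions held by WIN alone had a median of 238 bp and by WIN+cocaine alone 237 bp. The 3 widest members were ActReg_57890 on chromosome 3 (64134326 to 64135111), at 786 bp with scores of 39 in both libraries, ActReg_84538 on chromosome 7 (81485292 to 81486074), at 783 bp with 34 in WIN and 19 in WIN+cocaine, and ActReg_38578 on chromosome 18 (31386377 to 31387127), at 751 bp with 42 and 39. In ActReg_57890 the summits lay 448 bp apart, but its WIN interval of 786 bp held the whole WIN+cocaine interval of 422 bp. In ActReg_84538 the summits lay 384 bp apart. Its intervals of 609 and 223 bp overlapped by 49 bp, so this region mostly joined neighbouring intervals. In ActReg_38578 the summits lay 64 bp apart, and the intervals of 681 and 295 bp overlapped by 225 bp. The 2 members with a second WIN interval also joined intervals with little overlap. ActReg_22927 on chromosome 14 (34291685 to 34292333) had scores of 16 in WIN and 19 in WIN+cocaine, and its strongest WIN interval overlapped the WIN+cocaine interval by 4 bp. ActReg_53737 on chromosome 20 (14231497 to 14232079) had scores of 22 and 21 and an overlap of 52 bp.

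The strongest member was ActReg_448 on chromosome 1 (11912139 to 11912396). Its score was 163 in WIN and 99 in WIN+cocaine, with no interval in control or cocaine. The next in order of the lower score were ActReg_49529 on chromosome 2 (179702801 to 179703142), with 68 in both libraries, and ActReg_48183 on chromosome 2 (136989821 to 136990141), with 84 in WIN and 67 in WIN+cocaine. ActReg_448 stood well above these, as its lower score of 99 exceeded all other scores of the members in either library.

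Below them stood 7 members with lower scores of 56 to 65. ActReg_81711 on chromosome 7 (12432812 to 12433185) had 65 in WIN and 71 in WIN+cocaine. ActReg_1174 on chromosome 1 (31120294 to 31120561) had 64 and 60. ActReg_330 on chromosome 1 (8129549 to 8129833) had 77 and 59. These 3 were high in both libraries, with the higher score in WIN+cocaine for the first and in WIN for the other two. ActReg_9001 on chromosome 1 (266255915 to 266256277) had 62 and 58, and ActReg_47020 on chromosome 2 (95321253 to 95321494) had 56 and 64. ActReg_46217 on chromosome 2 (69417902 to 69418127) had 62 and 56, and ActReg_7763 on chromosome 1 (236664536 to 236664814) had 56 in both. In all 10 strongest members the intervals of both libraries overlapped by 50% or more of the longer, and the summits lay at most 96 bp apart. The highest WIN+cocaine scores outside these 10 belonged to ActReg_96161 on chromosome 9 (92921171 to 92921480), with 52 in WIN and 78 in WIN+cocaine, and ActReg_15090 on chromosome 11 (64349500 to 64349819), with 51 and 75.

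Of the 10 strongest members, 9 lay on chromosomes 1 and 2, which together held 352 of the 2041 members. Among the 10 strongest regions of the other pairs, 1 to 3 lay on these chromosomes. Over the 20 members with both scores at 50 or more, 5 were on chromosome 1, 5 on chromosome 2 and 2 on chromosome 7, and the 20 were spread over 10 chromosomes. These chromosomes were singled out after their values were seen.

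Strong members lay beside shared open chromatin. The 10 strongest were each within 140 to 2003 bp of a control or cocaine interval, with a median distance of 1057 bp, whereas the median over all members was 6601 bp. ActReg_448 lay 786 bp from ActReg_447, a region of 1457 bp that was open in all 4 libraries with scores of 256 in WIN, 222 in control, 156 in cocaine and 127 in WIN+cocaine. ActReg_48183 lay 1841 bp from ActReg_48184, which scored 288 in control and 287 in WIN+cocaine, with 289 in the WIN and the cocaine library. ActReg_9001 lay 140 bp from a control interval and 1193 bp from ActReg_9000, which scored 172 in WIN, 161 in control, 158 in cocaine and 156 in WIN+cocaine. The shared neighbours of these 3 members were thus strong in each library, control and cocaine included. The same held for ActReg_49529, whose neighbour ActReg_49530 at 1224 bp scored 199 in WIN+cocaine, 184 in control, 179 in cocaine and 146 in WIN. Over the shared neighbours of all 10 members the scores ran from 61 to 289, beside medians of 46 to 51 for regions of all 4 libraries.

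The distance to shared chromatin followed the score over all members. A region of all 4 libraries lay within 5000 bp of 4.94% of the 385 members with a lower score of 14 to 19, 11.2% of the 916 at 20 to 24 and 31.4% of the 414 at 25 to 29. It lay that close to 55.7% of the 253 members at 30 to 39, 84.9% of the 53 at 40 to 49 and 20 of 20 at 50 or more. The median distance fell from 20199 bp in the lowest range to 1208.5 bp in the highest. From scores of 20 upwards, by the lower score in the WIN-exposed libraries, regions of all 4 libraries less often had another this close. At 14 to 19 another lay within 5000 bp of 3.79% of 1108, near the members' share. The shares were 6.28% of the 4715 at 20 to 24 and 10.1% of the 6024 at 25 to 29. Another lay that close to 17.3% of the 10720 at 30 to 39 and 22.4% of the 7476 at 40 to 49. At 50 or more, a range with no upper limit, this held for 22.1% of 19694.

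The relation was shared by the other pairs. At scores of 50 or more a region of all 4 libraries lay within 5000 bp of 26 of 27 regions of WIN with cocaine (96.3%), 31 of 34 of control with WIN (91.2%), 14 of 16 of control with cocaine (87.5%) and 11 of 14 of control with WIN+cocaine (78.6%). For cocaine with WIN+cocaine this held for 59 of 111 (53.2%). In regions of WIN alone the share rose from 4.96% at 14 to 19 to 92.2% at 50 or more. The share of the cocaine-treated pair was the lowest of the 6, and the difference was not tested.

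**Figure D4:**
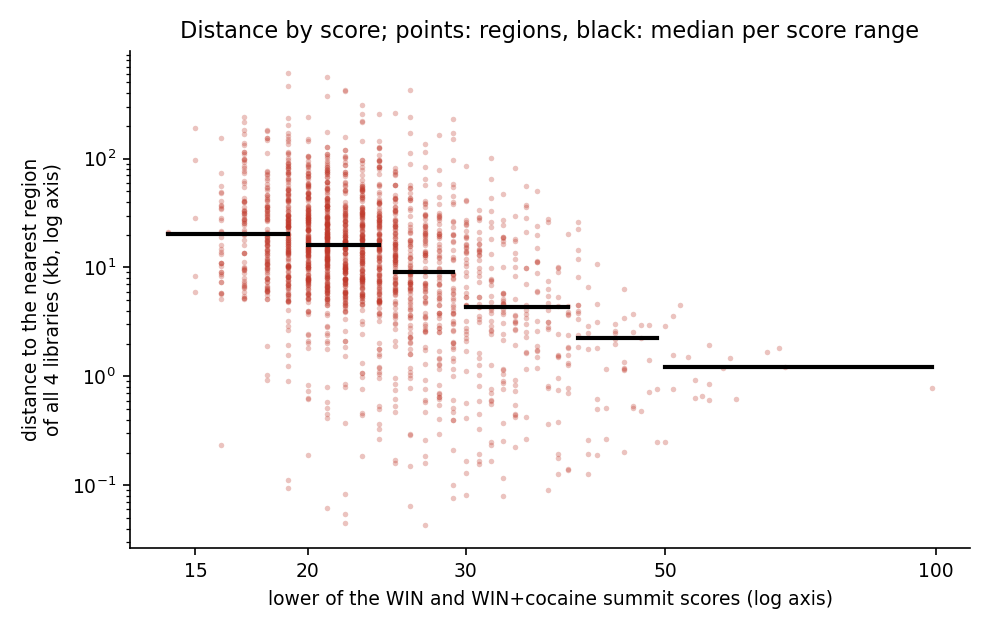
Distance from each member to the nearest region of all 4 libraries (vertical log axis, kb) by the lower of its WIN and WIN+cocaine scores (horizontal log axis, authors' scale); black lines are medians per score range. The medians step down from 20199 bp at scores of 14 to 19 to 1208.5 bp at 50 or more, and points at low scores thin out below about 5 kb.

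Weak members showed a step in number near 5000 bp from shared regions. Of the 1301 members with a lower score below 25, 122 lay within 5000 bp of a region of all 4 libraries, or 24.4 per kb of distance, and 275 lay between 5000 and 10000 bp, or 55 per kb. Between 4000 and 5000 bp there were 35, and between 5000 and 6000 bp there were 70. Members with a lower score of 30 or more fell steadily with distance, with 206 within 5000 bp and 39 between 5000 and 10000 bp. The step was not particular to the members. Over all active regions of 1, 2 or 3 libraries with a lowest score below 25, 640 lay between 4000 and 5000 bp and 1265 between 5000 and 6000 bp.

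The nearest neighbours of the members were also compared with those of all active regions. The median distance to the nearest active region of any kind was 5923 bp, against 6021 to 6719 bp for the other pairs and 6750 bp over all active regions. That neighbour was a region of all 4 libraries for 47.6% of the members and 48.6% of all active regions. It was another member in 27 cases, or 1.32%, where 2.11% of all active regions had a member as nearest neighbour. A median of 10 further active regions lay within 100000 bp, both for the members and for all active regions. Shared neighbours within 5000 bp, found for 458 members, had median scores of 45.5 in WIN and 49 in WIN+cocaine, beside 46 and 51 over all regions of 4 libraries. In control and cocaine these neighbours had medians of 47 and 50, beside 46 and 51. The shared regions next to members thus had no higher median score in the WIN-exposed libraries than shared regions in general.

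Members near intervals of the unexposed libraries were a minority. A control or cocaine interval lay within 500 bp of 157 members (7.69%) and within 5000 bp of 812 (39.8%), and 20 members had none within 100000 bp. For the other pairs an interval of a library outside the pair lay within 5000 bp of 35.2% to 41.6% of the regions.

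Members were found on all chromosomes but Y, which held 9 active regions. Chromosome 10 had the highest share, with 110 of 3377 active regions (3.26%, 95% Wilson interval 2.71% to 3.91%), beside 2.04% on all chromosomes. Chromosome 9 had the lowest, with 76 of 5088 (1.49%, 1.2% to 1.87%), followed by chromosome 4, with 111 of 7157 (1.55%, 1.29% to 1.86%). These 3 intervals did not include 2.04%, nor did that of chromosome 8 (2.45%, 2.06% to 2.91%). The intervals of chromosome 1 (1.51% to 2.04%) and chromosome 3 (2.04% to 2.8%) ended at that share after rounding. Regions are not replicates, and the chromosomes were picked as extremes among 21. Chromosome 10 was also the highest for control with WIN (2.43%) and control with WIN+cocaine (2.37%), and second for WIN with cocaine (2.67%). It ranked 6 of 21 for control with cocaine (1.98%) and 17 of 21 for cocaine with WIN+cocaine (3.76%). Its intervals were weak, with median scores of 33 in WIN and 33 in WIN+cocaine against 37 and 39 on all chromosomes, and 43.1% of its active regions were held by all 4 libraries against 49.8% of all. Other chromosomes with low scores had lower member shares: 1.88% on chromosome 12, with medians of 34 and 34, and 2.39% on X, with 33 and 35. The part of the low scores of chromosome 10 in its high share was not tested.

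**Figure D5:**
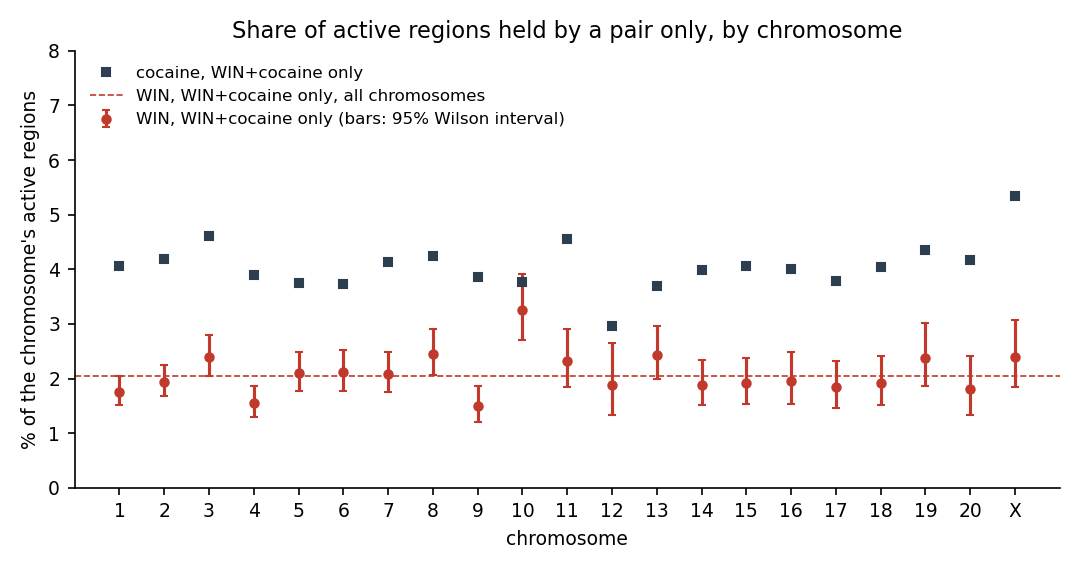
Members as a share of each chromosome's active regions (vertical axis, %; red points with 95% Wilson intervals) by chromosome (horizontal axis), with the share of regions of cocaine and WIN+cocaine only as dark squares and the member share over all chromosomes dashed at 2.04%. Chromosome 10 stands at 3.26% and chromosome 9 at 1.49%, and the X chromosome is highest for the cocaine-treated pair at 5.35%.

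The closest run of members lay on chromosome 9 (62255894 to 62329739), the chromosome with the lowest share. Within 73846 bp it held 5 members among 8 active regions. ActReg_94855 scored 25 in WIN and 27 in WIN+cocaine, ActReg_94858 scored 19 and 26, and ActReg_94859 scored 27 and 27. ActReg_94861 scored 42 and 34, and ActReg_94862 scored 31 and 33. Apart from the WIN score of 42, these scores lay below the library medians. Between them lay ActReg_94856, open in all 4 libraries with 52 in WIN, 57 in control and 65 in each cocaine-treated library, ActReg_94857, which held control, WIN and WIN+cocaine, and ActReg_94860, which held control alone with a score of 28. In windows of 100000 bp the other pairs reached 3 regions at most, save cocaine with WIN+cocaine, which reached 6 on chromosome 16. In windows of 1000000 bp the members reached 6 and the other pairs 6 to 11, so the members were not denser at that scale. A member had another member within 100000 bp in 398 cases (19.5%), beside 15.5% to 18.6% for the other pairs of like size and 31.7% for the larger cocaine-treated pair.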

How the data were processed

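Prefrontal cortex ATAC libraries of 4 treatments, 1 each, were assigned to treatments from the sample titles and the names of the deposited tracks. The tools listed include BWA and MACS2 2.1.0, per the submitters' processing notes. Not given in the sources used here are their settings, any insertion-site shift, the score scaling and the genome build. MACS2 can compare a site with the background in windows around it; whether it was run so here is not known. The authors deposited, per the file headers, an interval and a summit track per library, each summit with a whole-number score, and 1 track of active regions over the 4 libraries. Each interval was matched to its summit by order, and all summits lay inside their interval.

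An interval counted for an active region it overlapped by at least 1 base, and a region's score in a library was its highest summit score. Distances are gaps in bases between region edges, and positions are 1-based. Shares carry 95% Wilson intervals. Regions named are the 10 members with the highest lower score, the 3 highest in each library, the 3 widest, those with more than 2 intervals and the closest run of members within 100000 bp. The members, comparisons and rules were chosen with earlier results of these data known. No test was made, since each treatment had 1 ATAC library and the contrast of WIN-exposed with other libraries chose the members. Python 3.11.15 with pandas 2.3.3, numpy 2.4.6 and scipy 1.17.1 was used, and the counting was tested on simulated tracks with known patterns. The table of RNA values and the nucleus accumbens libraries were not used here, as their genes could not be joined to regions. Alternatives covered equal numbers of intervals, stricter scores, other overlaps and distances kept from other libraries.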

Additional observations from a re-analysis of the deposited data

How the results depend on the processing

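No paired analysis was possible because the ATAC libraries carry no replicate numbers and the members come from a presence rule with no test; with 1 library per treatment there is also no replicate to leave out. The number of members, 2041, was 1866 with the 69639 highest-scoring intervals of each library, of which 1485 were members before. It was 1843 with an overlap of 50% of the longer interval or more, and 1884 with no control or cocaine interval within 500 bases. Both settings can only narrow the rule. The number stayed at 2041 with intervals counted by midpoint, with an overlap of 1 base or more, and with only numbered chromosomes, X and Y. The rule left these settings little or no room to change it. It was 1322 with scores of 30 or more in all 4 libraries, only 326 of them members before; the others held a control or cocaine interval that this limit removed. The number of members was 101 when the WIN-exposed scores had to reach their library median, and 1229 with no control or cocaine interval within 5000 bases. Both of these also only narrow the rule. With scores of 30 or more the other pairs counted 1037 (control with WIN), 1153 (control with cocaine), 1331 (control with WIN+cocaine), 1571 (WIN with cocaine) and 3508 (cocaine with WIN+cocaine). With equal numbers they counted 2884, 1835, 2039, 2112 and 2761 in that order. The count of control with WIN thus rose from 1855 to 2884 with equal numbers, and of the 6 pairs only control with cocaine then had fewer than the WIN-exposed pair; the lowest score kept was 14 in control, 18 in WIN and 22 in the cocaine-treated libraries. The members' median WIN+cocaine score was 28 with equal numbers, against 26. Read depth is unknown, so an absent interval does not show closed chromatin.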
